A study of Mus musculus with 12 samples.

Results

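The immediate early genes are transcribed within minutes of a stimulus from transcription factors that are already in the cell, and 10 of them were followed here in the liver of *db*/*db* mice given molecular hydrogen. They were chosen by name: *Srf*, *Fos*, *Fosb*, *Jun*, *Junb*, *Jund*, *Egr1*, *Ier2*, *Ier3* and *Btg2*. Every non-control probe whose RefSeq record belongs to one of these genes was taken, which gave 11 of the 39429 probes and 10 of the 20017 gene symbols on the array. *Srf* had 2 probes and each of the other genes had 1, and the probe of *Fos* was spotted 10 times.

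Each of the 12 arrays carried a control pool in Cy3 and a treated pool in Cy5, without a dye swap, so that a ratio also holds any bias between the dyes. All mice were male *db*/*db* mice of 8 weeks, which lack a working leptin receptor and become obese and diabetic. In 3 groups the treated mice received MgH2, a powder that releases H2 on contact with water, by gavage for 1, 3 or 7 days, at 0.9 mg/kg a day according to the labels. The same dose was used for plasma measurements over these days, while the methods section names other doses. The methods give Mg(OH)2 as the control of the gavage. In the fourth group the mice drank H2-water, at 0.8 mM H2, for 14 days, and the controls drank degassed water. Each group had 3 arrays, and each pool held the RNA of 3 mice. A pool averages its animals, and in whole liver fewer cells of a type and less RNA per cell cannot be told apart.

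Most of these genes sit under the same control. A growth or stress signal runs through the ERK, JNK and p38 kinases to serum response factor, the product of *Srf*, which sits on promoters at the CArG box together with Elk-type cofactors. *Fos*, *Fosb*, *Jun*, *Junb* and *Jund* code for the subunits of AP-1, a dimer that binds the AP-1 site or the closely related cAMP response element (CRE). *Egr1* codes for a zinc-finger factor that binds a GC-rich site, *Ier2* and *Ier3* for small response proteins, and *Btg2* for an antiproliferative protein that works with the CCR4-NOT deadenylase. In liver these genes are known for rising quickly after feeding, handling, injury or partial hepatectomy, and their messages are short-lived.

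Promoters of 8 of the 10 genes were taken from the RefSeq promoter table (GRCm38.p6), and those of *Egr1* and *Ier2* were not searched. The 250 bases before the start of each gene were searched on both strands for the CArG box, the CRE written TGACGTCA, its core TGACGT (which lies within the full CRE), the AP-1 site TGANTCA and the EGR site GCGGGGGCG. The 4 promoters with a match are shown 5′ to 3′ on the strand of the gene, with the matches in capitals, because they hold the sites through which members of this family could act on each other. They lie at chr17:46556163-46556412, minus strand (*Srf*), chr12:85473640-85473889, plus strand (*Fos*), chr7:19310046-19310295, minus strand (*Fosb*) and chr1:134079156-134079405, minus strand (*Btg2*).
Srf: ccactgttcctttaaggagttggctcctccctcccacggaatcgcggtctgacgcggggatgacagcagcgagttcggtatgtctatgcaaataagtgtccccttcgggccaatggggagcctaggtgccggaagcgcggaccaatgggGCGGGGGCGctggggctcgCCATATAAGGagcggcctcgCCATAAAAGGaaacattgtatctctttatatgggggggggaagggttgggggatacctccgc
Fos: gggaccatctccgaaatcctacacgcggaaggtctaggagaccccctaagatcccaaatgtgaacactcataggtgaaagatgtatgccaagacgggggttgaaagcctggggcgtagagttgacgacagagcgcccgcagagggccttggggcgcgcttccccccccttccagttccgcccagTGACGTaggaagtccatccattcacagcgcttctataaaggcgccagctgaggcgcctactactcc
Fosb: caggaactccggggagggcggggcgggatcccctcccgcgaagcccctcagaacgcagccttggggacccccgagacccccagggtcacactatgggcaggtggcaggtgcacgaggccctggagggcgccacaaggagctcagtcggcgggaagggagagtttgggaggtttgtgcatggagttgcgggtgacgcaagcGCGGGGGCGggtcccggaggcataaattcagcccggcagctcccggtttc
Btg2: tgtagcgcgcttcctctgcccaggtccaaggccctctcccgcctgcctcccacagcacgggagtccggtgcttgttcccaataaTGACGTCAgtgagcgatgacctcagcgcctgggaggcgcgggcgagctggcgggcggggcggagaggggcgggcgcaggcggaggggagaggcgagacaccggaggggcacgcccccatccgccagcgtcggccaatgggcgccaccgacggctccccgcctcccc
*Srf* had 2 CArG boxes, which began 82 and 62 bases before the start, and an EGR site that began at 101 bases. CArG boxes were found in 1.47% of the 32851 promoter windows of the table and the EGR site in 2.57%. *Fosb* held the EGR site at 50 bases. *Btg2* held a full CRE at 166 bases, a motif of 1.55% of the windows, and *Fos* held its core at 66 bases, a motif of 6.47%. The AP-1 site, present in 6.75% of the windows, was not among these letters in any of the 8 promoters. A match describes the sequence and is not evidence that a factor was bound.

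**Figure D1:**
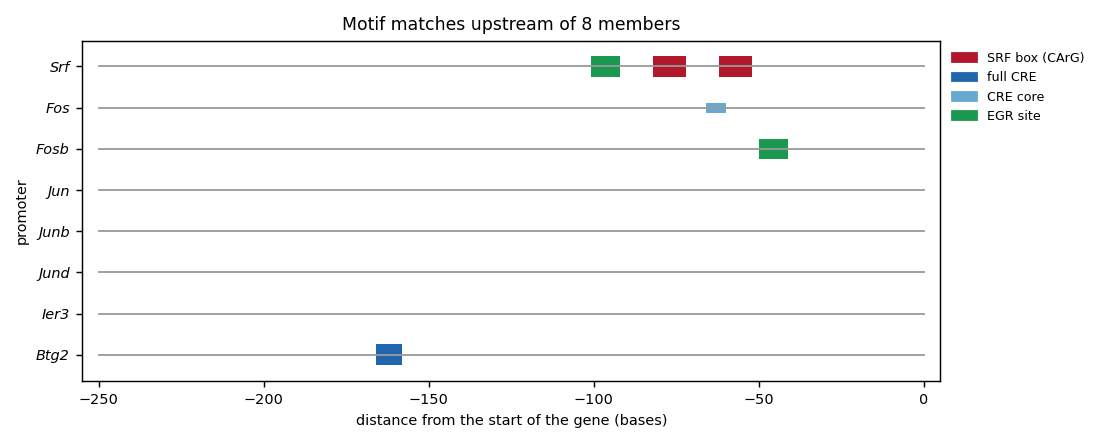
Motif matches in the 250 bases before the start of 8 member genes; the horizontal axis is the distance from the start in bases, and coloured bars mark matches on either strand. *Srf*, *Fos*, *Fosb* and *Btg2* held a match and *Jun*, *Junb*, *Jund* and *Ier3* held none.

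Across all probes, limma called 8.62% of those tested at 1 day (4.76% higher and 3.86% lower than in the controls, at an adjusted p under 0.05), 22.2% at 3 days (11.7% higher, 10.5% lower), 28.5% at 7 days (14.8% higher, 13.8% lower) and 8.46% at 14 days (4.79% higher, 3.67% lower). When the channels were scaled by their totals, the share of called probes that were higher moved from 55.2% to 31.3% at 1 day, from 52.6% to 37.97% at 3 days, from 51.8% to 41.4% at 7 days and from 56.6% to 40.2% at 14 days. Between 51.8% and 56.5% of the spots of an array were well above background. Of the hepatocyte markers, 7 of 9 were above background on all 12 arrays, whereas *Prss2* of the pancreas and *Epcam* of bile ducts were above it on none.

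A probe was tested where it was above background in both channels of every array compared. Of the 11 member probes, 10 were tested at 1 day and none was called, 8 were tested at 3 days and 1 was called, 8 were tested at 7 days and 2 were called, and 8 were tested at 14 days and none was called. The shares of all probes called were 8.62%, 22.2%, 28.5% and 8.46%, and with 8 to 10 probes these counts are not a result about the members. At an unadjusted p under 0.05 limma gave 2 member probes at 1 day and 1 at 14 days, beside 25.6% and 24.1% of all probes. The methods' t-test gave none on either day, beside 14.5% and 6.80% of all probes. The median log2 ratio of the tested member probes was 0.12 at 1 day, 0.14 at 3 days, -0.04 at 7 days and 0.02 at 14 days, beside medians of all tested probes between -0.00488 and 0.00594. The called probes belonged to *Srf* and *Jund*, whereas the mean ratios of *Egr1* and *Jun* were smaller than their SD between arrays on all 4 days.

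**Figure D2:**
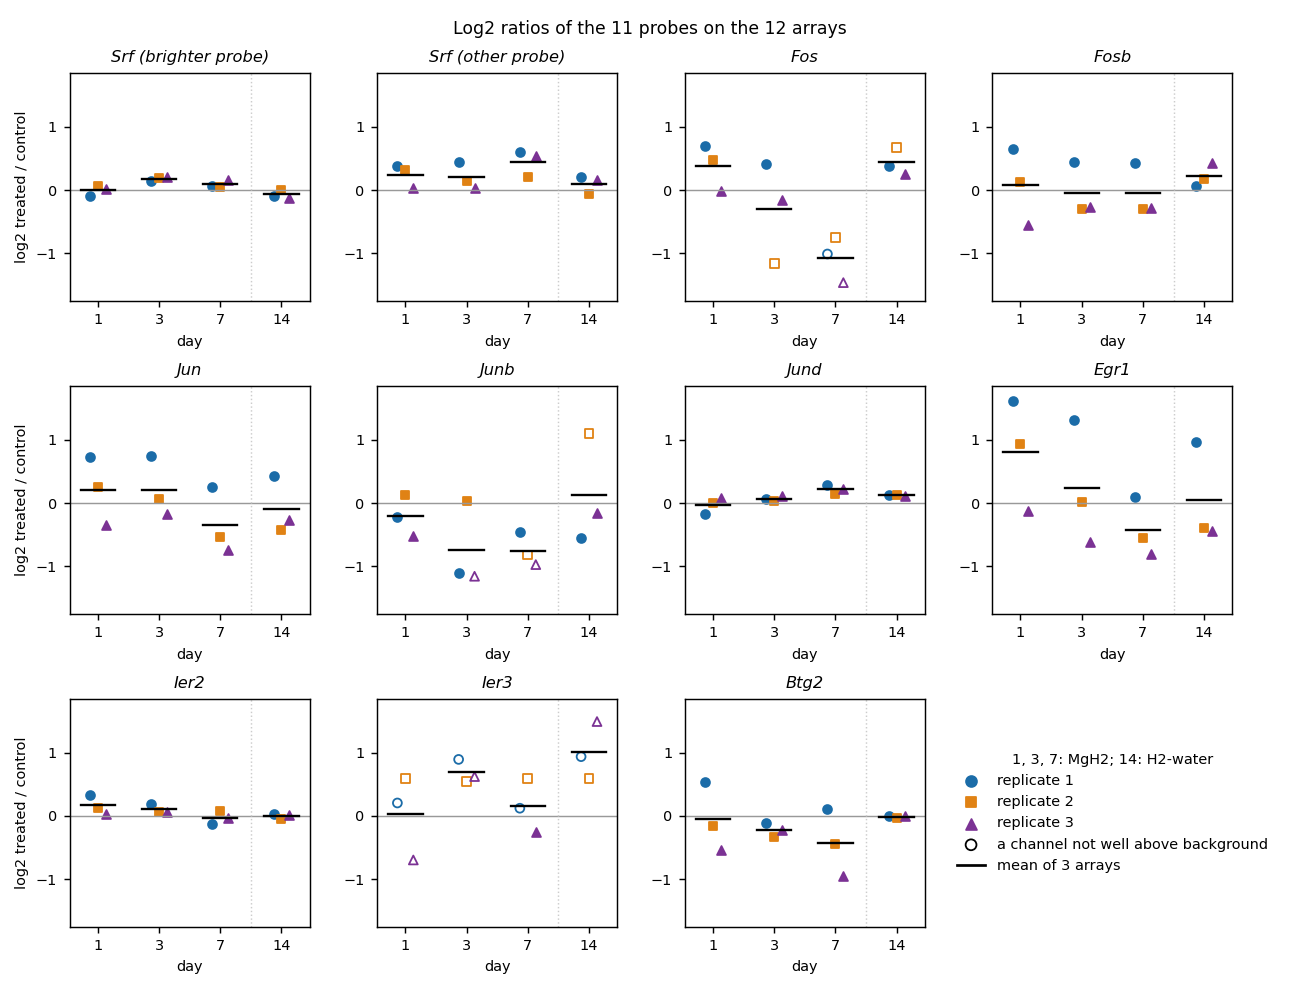
Log2 ratio of treated to control (vertical axis) by day (horizontal axis; 1, 3 and 7 days of MgH2, 14 days of H2-water) for the 11 probes; symbols are the 3 arrays of a group by replicate number, open where a channel was not well above background, and bars are means. The 3 replicates of *Egr1*, *Jun* and *Btg2* are wide apart, from 1.61 to -0.13 for *Egr1* at 1 day, whereas those of *Jund* lie within a narrow band.

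*Srf* changed by little, and its probes differed on the day. On the brighter probe the log2 ratios were -0.09, 0.07 and 0.01 at 1 day, 0.14, 0.20 and 0.21 at 3 days, 0.07, 0.04 and 0.16 at 7 days, and -0.09, 0.01 and -0.12 at 14 days. The 3 arrays of 3 days were all above the 3 arrays of 1 day. At 3 days the mean was 0.18 ± 0.04 (SD, n = 3), a 1.13-fold higher level, and was called (SE 0.0418, limma adjusted p = 0.0143). At 7 days this probe gave 0.09 ± 0.06 and did not pass (limma adjusted p = 0.133).

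On the other probe of *Srf* the log2 ratios were 0.38, 0.32 and 0.04 at 1 day, 0.44, 0.15 and 0.03 at 3 days, 0.60, 0.21 and 0.54 at 7 days, and 0.21, -0.06 and 0.16 at 14 days. All 9 arrays of MgH2 were above 0 and 1 array of 14 days was below it. The mean of 7 days, 0.45 ± 0.21 (n = 3), or 1.37-fold, was called (SE 0.101, adjusted p = 0.0099), whereas 0.21 ± 0.21 at 3 days was not (adjusted p = 0.168). Neither probe was called on both days, and the call at 3 days was lost without replicate 2 of 3 days (adjusted p = 0.0764) or replicate 3 (adjusted p = 0.072). The call at 7 days was lost without replicate 1 or replicate 3 of 7 days. When the spread was taken from the 3 arrays of a day alone, no member was called at 3 or 7 days.

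*Jund*, which codes for the AP-1 subunit present in resting cells, varied little between control pools. The pooled SD of its control level within a group was 0.0544 on the log2 scale, and 10.97% of the probes had a smaller one. For the treated level of *Jund* it was 0.107, and 53.3% of the probes had a smaller one. Its log2 ratios were -0.18, 0.00 and 0.07 at 1 day, 0.06, 0.03 and 0.12 at 3 days, 0.29, 0.14 and 0.22 at 7 days, and 0.13, 0.13 and 0.11 at 14 days. All 3 arrays of 7 days were above all 6 arrays of 1 and 3 days. The mean of 7 days was 0.22 ± 0.07 (n = 3), or 1.16-fold, and was called (SE 0.0483, adjusted p = 0.00968). Without replicate 1 or replicate 3 of 7 days it was not (adjusted p = 0.0681 and 0.0521). At 14 days *Jund* gave 0.12 ± 0.01 and did not pass (adjusted p = 0.153).

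*Egr1*, the early zinc-finger factor, had the widest ratios. Its log2 ratios were 1.61, 0.94 and -0.13 at 1 day, 1.32, 0.02 and -0.61 at 3 days, 0.10, -0.55 and -0.81 at 7 days, and 0.96, -0.40 and -0.44 at 14 days. On each day replicate 1 was the highest and replicate 3 the lowest. The means went from 0.81 ± 0.88 at 1 day through 0.24 ± 0.98 at 3 days to -0.42 ± 0.47 at 7 days, with 0.04 ± 0.80 at 14 days (n = 3 each), and none passed the test (limma adjusted p from 0.265 at 1 day to 0.968 at 14 days). The pooled SD of the ratio within a group was 0.80, wider than that of 99.7% of the 18411 probes above background on all arrays.

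*Jun*, the partner of *Fos* in AP-1, followed the same order of replicates on the days of MgH2. Its log2 ratios were 0.72, 0.25 and -0.34 at 1 day, 0.74, 0.07 and -0.17 at 3 days, 0.25, -0.54 and -0.75 at 7 days, and 0.42, -0.43 and -0.26 at 14 days. The means were 0.21 ± 0.53, 0.21 ± 0.47, -0.35 ± 0.53 and -0.09 ± 0.45 (n = 3 each), and none passed (adjusted p from 0.354 to 0.878). Over the 12 arrays the ratios of *Jun* and *Egr1* had a Pearson r of 0.93, given as a description, since the arrays of MgH2 may share control pools.

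*Btg2* and *Fosb* had the same order at 1 day. The log2 ratios of *Btg2* were 0.54, -0.16 and -0.54 at 1 day, -0.11, -0.34 and -0.22 at 3 days, 0.12, -0.44 and -0.95 at 7 days, and 0.00, -0.04 and -0.01 at 14 days. Those of *Fosb* were 0.65, 0.13 and -0.55, then 0.44, -0.30 and -0.26, then 0.42, -0.29 and -0.28, and 0.07, 0.18 and 0.43 at 14 days. No mean passed (adjusted p from 0.147 to 0.978 for *Btg2* and from 0.601 to 0.922 for *Fosb*), and only at 14 days were the 3 pools of *Btg2* within 0.04 of each other.

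In the treated pools of 7 days *Fos* was not well above background. *Fos*, the founding subunit of AP-1, had log2 ratios of 0.70, 0.48 and -0.02 at 1 day, 0.41, -1.16 and -0.16 at 3 days, -1.01, -0.74 and -1.46 at 7 days, and 0.38, 0.68 and 0.26 at 14 days. The 3 arrays of 7 days lay below 0 and the 3 arrays of 14 days above it. These groups also differed in agent, route, control, slide and scan software, which cannot be told apart. At 1 day, the only day it was tested, the mean was 0.39 ± 0.37 (n = 3, limma adjusted p = 0.382). At 7 days every unmarked spot of the probe (9, 8 and 7) was well above background for the control pool and none was for the treated pool, so the ratio was not tested there. The treated pools were at least 1.67-fold lower than the control pools at 7 days (mean log2 signal 4.58 in the control pools against a limit of 3.84, with 3.51 measured). With no filter on dim probes *Fos* was called at 7 days (-1.07, adjusted p = 0.0274), and after normexp background correction with loess the ratio was -0.16.

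In the treated channel alone, *Fos* had scaled signals of 27.2, 23.6 and 29.1 at 1 day, 21.7, 7.0 and 26.7 at 3 days, and 7.9, 11.3 and 11.4 at 7 days. The scaled signals of 7 days were all below those of 1 day. On channels normalised with Aquantile, the mean of 7 days was at least 2.02-fold lower. That bound was not computed with other background handling, and the arrays of 1 day and 7 days lay on different slides. The lowest of the 9 scaled signals was that of replicate 2 at 3 days, where none of 5 spots was well above background for the treated pool. A scaled signal is the processed signal after each channel was set to a common 75th percentile.

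The other members were dim or flat. *Junb*, an AP-1 subunit, was tested at 1 day alone (-0.21 ± 0.32, n = 3, adjusted p = 0.727), and its log2 ratios were -1.11, 0.03 and -1.16 at 3 days and -0.46, -0.82 and -0.97 at 7 days, where 1 and 2 of the treated pools were not well above background. *Ier3* was not well above background in one or both channels on 11 of the 12 arrays, and its log2 ratios, from -0.70 to 1.49, were not tested. *Ier2* had log2 ratios of 0.34, 0.13 and 0.03 at 1 day, all above 0, and a mean of 0.17 ± 0.16 that did not pass (n = 3, adjusted p = 0.117). It lay between -0.12 and 0.19 on the other 9 arrays.

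The control signals of *Egr1*, *Jun*, *Btg2* and *Fos* differed between replicates in the same way on each day of MgH2. For *Egr1*, *Jun* and *Btg2* the pooled SD of the log2 level within a group was larger in the control pools (0.74, 0.51 and 0.52) than in the treated pools (0.43, 0.18 and 0.31), and for *Fos* it was 0.58 and 0.63. The scaled control signal of *Egr1* in replicates 1, 2 and 3 was 97.4, 108 and 245 at 1 day, 94.3, 109 and 239 at 3 days, and 86.3, 98.2 and 258 at 7 days. That of *Jun* was 890, 1299 and 2075, then 988, 1226 and 2036, then 977, 1294 and 1954. That of *Btg2* was 132, 185 and 281, then 129, 182 and 278, then 118, 185 and 273. The third control pool was the highest for all 3 genes on all 3 days, although the labels give each day its own controls.

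The replicate number took 99.0% of the sum of squares of the control level of *Egr1* over the 9 arrays of MgH2, 98.8% for *Jun*, 99.2% for *Btg2* and 97.0% for *Fos*, and the day took at most 1.2%. Over all probes the medians were 57.4% for the number and 11.2% for the day. In the treated pools the number took 20.7% and the day 65.0% for *Egr1*, and 18.3% and 72.1% for *Jun*. In control pools of number 3 *Egr1* was 2.51-fold, *Jun* 1.84-fold, *Btg2* 1.82-fold and *Fos* 1.82-fold above the mean of the others, and 99.9%, 99.7%, 99.7% and 99.7% of the probes had a smaller difference. *Jund* and *Srf* did not share this, at 0.999-fold and, on the brighter probe, 1.07-fold.

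**Figure D3:**
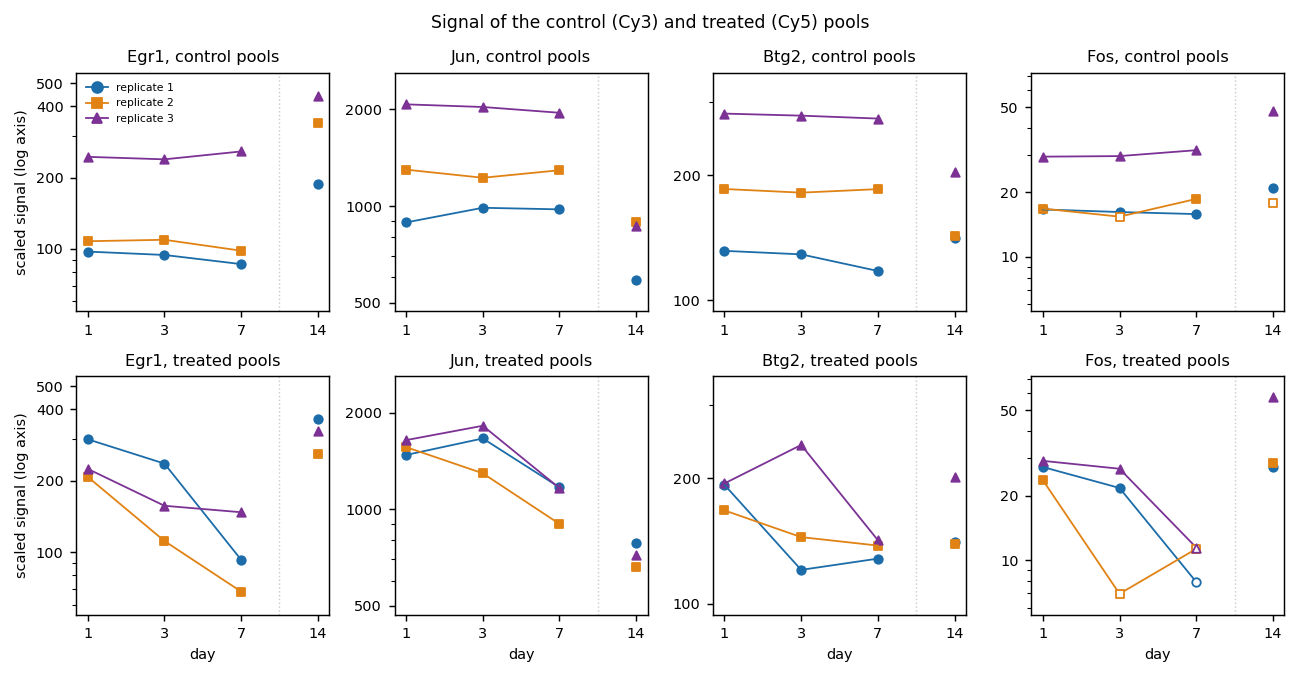
Scaled signal (log axis) of *Egr1*, *Jun*, *Btg2* and *Fos* in the control pools (Cy3, upper row) and treated pools (Cy5, lower row) by day, with lines joining the arrays of a replicate number over 1, 3 and 7 days of MgH2 and open symbols where the probe was not well above background. Control signals of a number stay level over the days, such as 97.4, 94.3 and 86.3 for *Egr1* in replicate 1, whereas among the days of MgH2 the treated signals of *Egr1* and *Jun* are lowest at 7 days in every replicate.

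The same held over the whole array. Control levels of the same number on different days of MgH2 differed by a median of 0.0552 to 0.0751 on the log2 scale over 18411 probes (9 pairs), whereas control pools of different numbers on the same day differed by 0.0951 to 0.128. Deviations of the control level from its group mean had a Pearson r of 0.32 to 0.67 between days within a number and -0.49 to 0.09 between numbers. For treated levels these were -0.30 to 0.18 and -0.40 to 0.44. No probe of 19797 was called between the control pools of 7 days and 1 day, and 906 had an unadjusted p under 0.05, whereas 3331 of 19361 were called between the treated pools. Whether the controls of 1, 3 and 7 days were the same RNA was not tested, and the ratios of the 3 days are given as comparisons that may share controls.

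**Figure D4:**
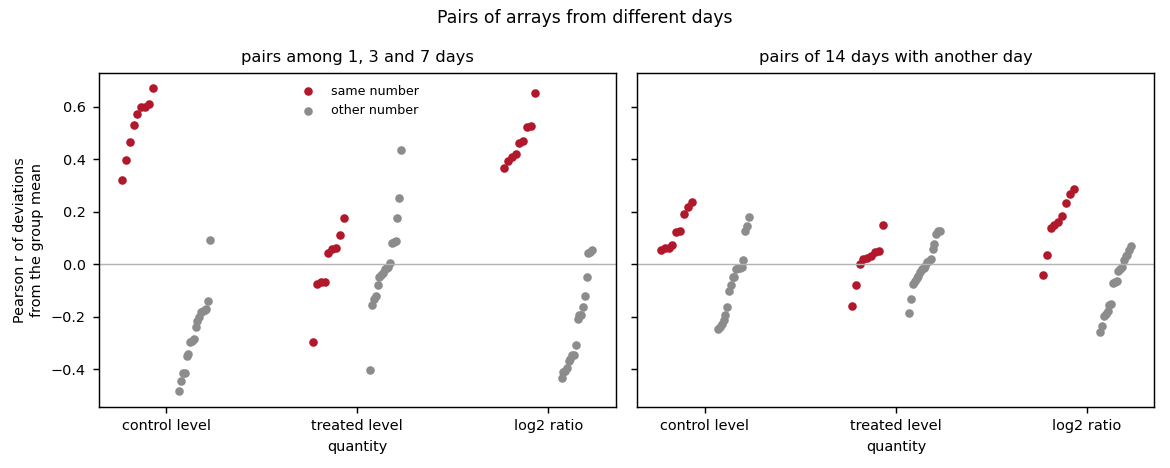
Pearson r between the deviations of 2 arrays of different days from their group means (vertical axis), over 18411 probes, for the control level, the treated level and the log2 ratio; red points share a replicate number and grey points do not. Among 1, 3 and 7 days every pair with the same number lies above 0.3 for the control level and the ratio, and the treated levels spread around 0.

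The arrays of MgH2 were taken as paired by number, and the change between days was also fitted with the number as a block. Without the block, 8 member probes were tested in each contrast and none was called in any of the 5: limma called 6.1% of all probes at 7 days minus 1 day, 5.46% at 14 days minus 7 days, 0.0213% at 14 days minus 1 day and 0% at both 3 days minus 1 day and 7 days minus 3 days. At an unadjusted p under 0.05 there were 2 member probes at 7 days minus 1 day, 2 at 14 days minus 7 days, 1 each at 14 days minus 1 day and 3 days minus 1 day, and 0 at 7 days minus 3 days, beside 24.4%, 23.8%, 11.8%, 14.8% and 4.38% of all probes in that order.

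With the replicate block, *Egr1* and *Jun* were called lower at 7 days than at 1 day, 2 of 8 member probes beside 13.9% of all probes. The differences of *Egr1* were -1.51, -1.48 and -0.68 in replicates 1, 2 and 3, all of the same sign, with a mean of -1.23 (SE 0.211, adjusted p = 0.0231 with the block and 0.243 without). Those of *Jun* were -0.47, -0.80 and -0.41, with a mean of -0.56 (SE 0.0845, adjusted p = 0.0188 with the block and 0.399 without). *Btg2* was lower in the 3 pairs as well, by -0.43, -0.29 and -0.41, and did not pass (mean -0.37, adjusted p = 0.224 with the block). *Fos* differed by -1.71, -1.22 and -1.44 and was not tested. Both calls depended on single arrays. With the block and without any 1 of the 3 arrays of 1 day neither gene was called (adjusted p from 0.0678 to 0.082 for *Egr1* and from 0.0506 to 0.0652 for *Jun*), nor was either without replicate 1 of 7 days (0.0824 and 0.0726). *Egr1* was also lost without replicate 2 of 7 days (0.0628) and *Jun* without replicate 3 (0.0643). The difference ranged from -1.48 to -1.01 for *Egr1* and from -0.64 to -0.45 for *Jun* over these fits.

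The treated pools gave the same order without the ratio. The scaled treated signal of *Egr1* was 299, 208 and 224 at 1 day, 236, 111 and 157 at 3 days, and 92.8, 68.1 and 147 at 7 days, and that of *Jun* was 1477, 1562 and 1643, then 1663, 1295 and 1821, then 1171, 901 and 1164. No treated pool of 7 days reached the lowest of 1 day for either gene. The log2 difference between 7 days and 1 day in the treated pools was -1.30 for *Egr1* (SE 0.322, adjusted p = 0.0253) and -0.54 for *Jun* (SE 0.139, adjusted p = 0.0284), and in the control pools it was -0.08 and 0.01. The treated levels enter the ratios, so these are not separate evidence. The arrays of 1 day and 7 days lay on different slides, and slide and day cannot be told apart for this contrast. Within the slide that held 1 and 3 days the ratio of *Egr1* differed by 0.51 (3 days minus 1 day, 1 against 3 arrays), whereas the 2 arrays of number 1 on it differed by -0.30. Within the slide that held 3 and 7 days it differed by 0.08 (7 days minus 3 days, 2 against 2 arrays), whereas the 2 arrays of number 2 on it differed by -0.56. The sign within a slide thus turned with the pairing by number.

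**Figure D5:**
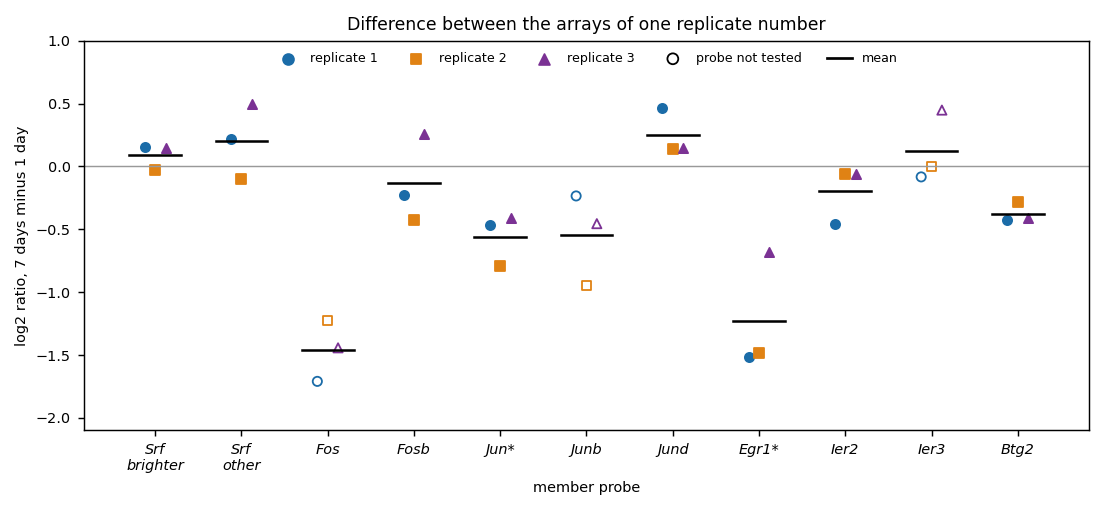
Log2 ratio at 7 days minus that at 1 day for each replicate number (symbols) and the mean (bars) for the 11 member probes; open symbols were not tested and an asterisk marks an adjusted p under 0.05 with the replicate block. *Egr1*, *Jun*, *Fos* and *Btg2* lie below 0 in all 3 pairs, and *Jund* lies above 0 in all 3, at 0.46, 0.14 and 0.14.

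*Jund* ran the other way, with a difference of 0.25 between 7 days and 1 day (SE 0.0683 and adjusted p = 0.0617 without the block, adjusted p = 0.0695 with it). Over the 9 arrays of MgH2 its treated level had a Pearson r of -0.66 with that of *Egr1* and -0.89 with that of *Ier2* (Spearman rho -0.65 and -0.58). With the other members r ranged from -0.54 (*Fos*) to 0.60 (*Srf*, brighter probe), with -0.25 for *Jun* and -0.18 for *Btg2*. The 9 arrays depend on the same days and may share control pools, and the values are given as a description.

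The genes whose ratios over the 12 arrays were most like that of *Fos*, among 11488 gene symbols, were *Adcy7* (Pearson r = 0.96), *6030458C11Rik* (0.94), *Cd72* (0.94), *Marcks* (0.94) and *Fgfr3* (0.94). The *Fos* ratios include those of 7 days, where its treated pools were not well above background. The arrays of MgH2 may also share control pools, so the r values are given as a description. *Adcy7* codes for an adenylyl cyclase and *Cd72* for a B-cell surface protein. Those most like *Egr1* were *Slc25a25* (0.92), *Zfp930* (0.92), *Daam1* (0.91), *Gm14308* (0.91) and *Acp5* (0.90). *Slc25a25* codes for a mitochondrial ATP-Mg carrier. Over the control levels of the 9 arrays of MgH2, r with *Egr1* was 0.92 for *Slc25a25*, 0.44 for *Zfp930*, 0.68 for *Daam1*, 0.76 for *Gm14308* and 0.25 for *Acp5*. The control levels enter the ratios by which these genes were chosen, so these values are not separate evidence.

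The counts of the gene lists stand beside the shares of all genes called, which were 5.08% higher and 3.62% lower at 1 day, 12.5% and 10.9% at 3 days, 16.0% and 14.4% at 7 days, and 5.47% and 3.38% at 14 days. Among 40 other immediate early genes, none of 33 tested was called at 1 day, 3 of 31 at 3 days, 4 of 32 at 7 days and 2 of 31 at 14 days, with median log2 ratios of 0.05, 0.09, 0.12 and -0.10. At 7 days *Klf4*, a zinc-finger factor, rose (0.85, SE 0.16, adjusted p = 0.00424), as did *Myc* (0.66, adjusted p = 0.0302), and *Gadd45a*, a stress response gene, fell (-1.02, SE 0.171, adjusted p = 0.00253). *Gadd45a* and *Klf4* had the same calls at 3 days (-0.86 and 0.64). *Myc* was lower at 14 days (-0.95, adjusted p = 0.0168). At 7 days minus 1 day *Klf4* was called without the replicate block (0.94, adjusted p = 0.0416). With it 2 of 32 were called higher and 3 lower, beside 6.98% and 7.91% of all genes, with *Klf4* at 0.94, *Gadd45a* at -0.76 and *Myc* at 0.60.

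Among the bZIP partners of AP-1, *Atf4*, a factor of the amino acid and stress response, was higher at 1, 3 and 7 days (0.34, 0.37 and 0.34, adjusted p = 0.00083 at 1 day), and *Atf2*, which pairs with *Jun* on the CRE, was higher on all 4 days (0.21, 0.16, 0.15 and 0.15). *Batf3* was lower at 3 and 7 days (-0.50 and -0.53) and lower at 7 days than at 1 day (-0.68, adjusted p = 0.0261). In all, 2 of 13 partners were called at 1 day, 4 of 11 at 3 days, 3 of 12 at 7 days and 1 of 11 at 14 days.

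Upstream, the cofactors of SRF and the ERK cascade gave 0 of 24 calls at 1 day, 3 of 24 at 3 days, 6 of 24 at 7 days and 3 of 24 at 14 days. *Rps6ka1*, an ERK-activated kinase, was lower at 3 and 7 days (-0.57 and -0.53), whereas *Sos2*, an exchange factor of Ras, was higher (0.26 and 0.34). *Elk4*, a cofactor that binds with SRF, was higher at 7 days (0.34, adjusted p = 0.00568). In the JNK and p38 cascades all calls were higher: 1 of 10 at 1 day, 2 of 11 at 3 days and 3 of 11 at 7 days, with *Mapkapk2*, a kinase under p38, at 0.40, *Map2k4* at 0.23 and the p38 gene *Mapk14* at 0.13 on that day.

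Downstream, the cytoskeletal targets of SRF were lower where they were called: 0 of 14 at 1 day, 7 of 14 at 3 days, 5 of 15 at 7 days and 1 of 14 at 14 days, with medians of -0.07, -0.27, -0.16 and -0.02. At 3 days *Myl9*, a myosin light chain, fell by 0.46 on the log2 scale, *Tagln2* by 0.44 and *Tagln*, an actin-binding protein of smooth muscle, by 0.34. Of the stellate cell and fibroblast markers, 3 of 8 were called lower at 3 days and 3 of 9 at 7 days. Their summed scaled signal was 12087 to 14290 in the treated pools of 3 days against 13849 to 16410 in the controls. At 7 days it was 13669 to 14430 in the treated pools, within the range of 13228 to 16215 in the controls. The part of those cells in the result was not tested. Of the feedback genes of ERK, *Etv5* was higher at 1 day (0.35, adjusted p = 0.0371) and lower at 7 days than at 1 day (-0.53, adjusted p = 0.0388), and with the replicate block *Dusp6*, a phosphatase of ERK, was lower as well (-0.63, adjusted p = 0.0234).

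In the family of *Btg2* and the CCR4-NOT deadenylase, *Btg3* was higher at 3 and 7 days (0.53 and 0.65), and the deadenylase subunits *Cnot8* (-0.32 and -0.47) and *Cnot6l* (-0.19 and -0.20) were lower. No gene of this family was called at 1 or 14 days (0 of 11 and 0 of 10). Of 12 clock genes tested on each day, *Cry2* was called at 7 days (0.36, adjusted p = 0.0078) and none at 1, 3 or 14 days. Among the heat shock genes, 1 of 9 was called at 3 days (*Hspd1*, 0.23) and 4 of 9 at 7 days, of which 1 was higher and 3 were lower, with *Hsph1* at -0.72, *Hspb1* at -0.47 and *Hsp90aa1* at -0.35.

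Of 12 Kupffer cell and leukocyte markers, all tested, 2 were called lower at 1 day, 6 at 3 days, 8 at 7 days and 0 at 14 days, and none was called higher on any day. Their summed scaled signal was 18236 to 19882 in the treated pools of 1 day and 15583 to 16730 in those of 7 days, against 19692 to 22863 and 19933 to 23231 in the control pools. The neutrophil markers *S100a9* and *S100a8* fell by 1.36 and 0.97 on the log2 scale at 7 days, with 3 of 3 tested markers lower. The hepatocyte markers had 2 of 9 higher at 3 days and 3 of 9 at 7 days, with *Alb* at 0.41. In the third control pool, where *Egr1* was high, the Kupffer cell and leukocyte markers were higher by a median of 0.17 to 0.18 on the log2 scale on the 3 days of MgH2. The part of these cells in the values of *Fos*, *Egr1* and *Jun* was not tested.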

How the data were processed

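Liver RNA was hybridised to 2-colour Agilent arrays, with a control pool in Cy3 and a treated pool in Cy5. The deposited files hold intensities that the authors made with Feature Extraction 10.10.1 per the submitters' processing notes (10.7.3.1 in the headers of the arrays of 14 days and 10.10.1.1 in the others), already background-subtracted and dye-normalised, beside the deposited log10 ratio. The deposited table of log2 values equals that log10 ratio after a change of base. The ratio log2(Cy5/Cy3) of these intensities was averaged over the spots of a probe that were not marked as outliers, without further scaling. The scan software differed between the arrays of 14 days and the others, so that no signal level was compared between them.

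Tests were limited to probes with 50% or more of their spots well above background, for both dyes and on every array of the comparison. limma 3.58.1 in R 4.3.3 was fitted over the 12 arrays (lmFit and eBayes), with group means against 0 and 5 contrasts, and p-values were adjusted by Benjamini-Hochberg over all probes tested. A call is an adjusted p under 0.05.

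Arrays with the same replicate number deviated together: over the 9 pairs among 1, 3 and 7 days the ratios had r from 0.368 to 0.655, all over 0.1, so the numbers were taken to pair these arrays. With 14 days r was -0.04 to 0.29, and the number was not taken as a pairing there. Other scalings, normexp (offset 50) with loess, no filter on dim probes, the slide or replicate as a block, the methods' t-test on log2 channel signals and fits without each array were also run. Levels of the treated pools in place of ratios, and the replicate block without each array of MgH2, were added after seeing the data. Limits for *Fos* came from channels normalised with Aquantile.

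The members and gene lists were chosen with earlier results of these data known. All members are named with every probe, a gene being represented by its brightest probe. Of a list, called genes are named, or the 3 of largest change. The 5 genes most like *Fos* and *Egr1* are those of highest r. Symbols came from RefSeq records, which named 67.0% of the probes. The array number limits the precision.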

Additional observations from a re-analysis of the deposited data

Results flagged for a closer look

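With the replicate block, the log2 ratios of *Egr1* and *Jun* differed between 7 days and 1 day of MgH2. The differences were -1.23 and -0.56 (limma adjusted p = 0.0231 and 0.0188). All 3 pairs of arrays with the same number had this sign for both genes. Without the block neither difference passed. With it both calls were lost when any array of 1 day, or replicate 1 of 7 days, was left out. The arrays of 1 day and 7 days lay on different slides, so slide and day cannot be told apart.

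*Fos* lay below the controls on the 3 arrays of 7 days of MgH2 and above them on the 3 arrays of 14 days of H2-water, a difference of 1.51 on the log2 scale between the measured means. The treated pools of 7 days were not well above background, so this value is no measure of the size of the difference, and it was not tested. In replicate 2 of 14 days, 4 of 10 spots of *Fos* were well above background for the control pool. The 2 groups also differed in agent, route, days, control, slide and scan software, which cannot be told apart. On channels normalised with Aquantile, the level at 7 days is bounded as at least 1.67-fold below the control pools. After normexp background correction with loess the ratio at 7 days was much smaller in size, so the bound depends on the background handling.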

How the results depend on the processing

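The counts of called members were small and most stayed as reported. At 3 days the count of 1 became 0 with no filter on dim probes, with only the arrays compared, and by the methods' t-test before and after adjustment. At 7 days the count of 2 became 0 with only the arrays compared, 1 with 1 probe a gene, 1 by the methods' t-test and 0 after its adjustment. Before adjustment that t-test passed 12.6% of all probes at 3 days and 18.8% at 7 days, and after it 1 and 0 probes. With no filter on dim probes, *Fos* was called at 7 days as well as *Srf* and *Jund*. At 14 days the count became 1 (*Ier3*) and at 14 days minus 7 days 1 (*Fos*) with no filter on dim probes. At 7 days minus 1 day the count of 0 became 2 with the replicate block (*Egr1* and *Jun*), 2 with the treated pools' levels, an alternative chosen after seeing the data, and 1 (*Jund*) with normexp and loess or with the slide as a random block. The replicate block changed no other call of a member. Leaving out each array in turn gave 0 to 1 at 3 days and 0 to 2 at 7 days, the losses coming without replicates 2 or 3 of 3 days and without replicates 1 or 3 of 7 days. No result reversed. Dim signal limits *Fos*, *Junb* and *Ier3*, and 3 pools a group limit the rest. Over all probes, calls at 1, 3, 7 and 14 days went from 1696, 4319, 5556 and 1728 to 101, 292, 2176 and 502 with only the arrays compared, to 714, 2430 and 8560 at 1, 3 and 7 days with no filter, to 2608 at 14 days with normexp and to 2679 at 1 day with the slide as a random block. Leaving out single arrays brought them as low as 340, 1815, 2876 and 395, each without an array of that day (replicate 2 of 1 day, 2 of 3 days, 3 of 7 days and 3 of 14 days). At 7 days minus 1 day 1169 became 2666 with the replicate block, 184 with only the arrays compared, 109 with no filter, 2052 with the slide block and 61 to 633 without single arrays that moved it. At 14 days minus 7 days 1020 became 34 without replicate 3 of 7 days, and 2 with the replicate block, although the numbers did not pair these groups. With the replicate block, leaving out each MgH2 array in turn, chosen after seeing the data, gave 0 to 2 called members at 7 days minus 1 day: 0 without any array of 1 day or replicate 1 of 7 days, 1 without replicate 2 or 3 of 7 days and 2 without any array of 3 days.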
